A study of Arabidopsis lyrata with 3 samples.

Results

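Scaffold 9 of the Arabidopsis lyrata genome assembly is a short sequence of 1.88 Mb that stands beside 8 far longer scaffolds. All windows that chromatin immunoprecipitation and sequencing (ChIP-seq) of the transcription factor SEPALLATA3 (SEP3) gave on it were taken, with no filter. There were 785 in replicate 1, of 93693 windows in all, and 591 in replicate 2, of 64504. Together they made 1376 of 158197 windows.

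Both ChIP libraries came from wild-type A. lyrata inflorescences whose buds spanned floral stages 1 to 10 or 11, and the antibody recognises a peptide of A. thaliana SEP3. Vernalisation lasted 7 to 10 weeks, and bolting followed at 18 to 22 °C in long days. Replicate 1 plants spent the cold at 8 °C with 16 h of light, whereas replicate 2 plants had 8 °C days of 12 h and 4 °C nights. Cold treatment and library therefore cannot be told apart, and 1 input DNA library, grown like replicate 1, has no window list here. How many plants went into a library is not given in the labels.

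SEP3 belongs to the MADS-domain proteins, which bind DNA as dimers and as larger complexes at AT-rich elements called CArG boxes. It is best known as the partner that lets other MADS-domain proteins specify petals, stamens and carpels, and it acts from young floral buds onward. The long scaffolds of this assembly stand for the chromosomes of A. lyrata, while scaffold 9 was left apart from them. No DNA sequence was used here, so windows are given by position, score and neighbouring genes. Positions are those of the build the files call Araly1.

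Each window carries a score assigned by the authors, who listed windows from a score of 1.01 upward. The sources used here do not give its formula. Scores therefore served to rank windows within a library, and scaffolds were compared only within a library. Where scores of both libraries are set side by side, their scales may differ. With 1 scaffold set beside 8 and 2 libraries of a single kind, no test between groups was possible, and all comparisons are descriptions. Read depth is unknown from these lists. The 95% Wilson intervals cover counting error over windows, which are not replicates.

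Windows of any strength were somewhat sparser on scaffold 9 than on the long scaffolds pooled, and their typical score was the same. In replicate 1 scaffold 9 held 417 windows per Mb, against 416 to 514 on scaffolds 1 to 8. In replicate 2 it held 314 per Mb, against 287 to 355. The ratio to scaffolds 1 to 8 as a whole was 0.871 in replicate 1 and 0.954 in replicate 2 (mean 0.912 ± 0.0582, SD, n = 2 libraries). Scaffold 8 was the sparsest of the long scaffolds in both libraries. Scaffold 9 lay just above it in replicate 1 and above 3 of the 8 in replicate 2. Scaffolds 1 to 8 were also divided into 100 consecutive stretches of the length of scaffold 9. Fewer windows than on scaffold 9 were found in 27 stretches in replicate 1 and in 29 in replicate 2. The windows covered 16.9% of scaffold 9 in replicate 1, below the 17.7 to 22.1% of the long scaffolds. In replicate 2 they covered 7.06%, inside the range of 6.70 to 8.60%.

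The median score was 1.42 in replicate 1 and 1.2 in replicate 2, on scaffold 9 as on the long scaffolds pooled. In replicate 1, 194 windows scored 2 or more (24.7%, interval 21.8 to 27.8%; 24.6% in the whole list). In replicate 2, 42 windows did (7.11%, interval 5.30 to 9.47%; 7.8% in the whole list). These shares sat close to those of the whole lists.

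Width varied as little. The median window was 286 bp long in replicate 1, against 267 to 279 bp on the long scaffolds, and 169 bp in replicate 2, against 167 to 177 bp. The mean width fell just under the range of the 8 in both libraries, at 404 bp against 408 to 438 bp and at 225 bp against 226 to 244 bp. The widest replicate 1 window on it was 2481 bp, and the widest replicate 2 window 2185 bp. When scaffolds 1 to 8 were divided into 100 consecutive stretches of the same length, the widest window of a stretch had a median of 4202 bp in replicate 1 and of 1708 bp in replicate 2. The scaffold 9 maximum was thus low in replicate 1, where 93 stretches had a wider window, and high in replicate 2, where 13 did. The widest replicate 2 windows on scaffold 9, of 2185, 1652 and 1455 bp, all lay in a single run of strong windows, described below.

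The upper end of the scores differed more, and not alike in the libraries. Replicate 1 had no window with a score of 10 or more on scaffold 9, against 0.984 to 1.51 per Mb on the long scaffolds. Replicate 2 had 3, or 1.59 per Mb, above the 0.654 to 0.906 per Mb of the long scaffolds. A score of 5 or more was given to 8 replicate 2 windows, more than in 87 of 100 stretches of equal length on scaffolds 1 to 8, and to 5 replicate 1 windows, fewer than in 85. Of those 8 replicate 2 windows, the ones scoring 11.39, 10.90, 8.70, 7.36 and 6.68 lay in the run of strong windows named above. The others scored 10.10, 5.96 and 5.35. Even so, no very high score was found on scaffold 9 in either library. The highest replicate 1 score was 7.18, against maxima of 30.26 to 57.62 on the long scaffolds. Replicate 2 reached 11.39, against 28.41 to 73.31. Longer scaffolds offer more sites, so the stretches, cut consecutively at the length of scaffold 9, served as a second comparison. The highest replicate 1 score in a stretch had a median of 15.1 (quartiles 12.6 and 21.8), and 93 of the 100 stretches exceeded 7.18. In replicate 2 the median was 17.7 (quartiles 10.2 and 27.6), and 68 stretches exceeded 11.39. At equal length, then, the replicate 1 maximum of scaffold 9 was low and the replicate 2 maximum was nearer to the middle. That replicate 2 window met no replicate 1 window and lay in the run of strong replicate 2 windows. Outside that run the replicate 2 maximum was 10.10.

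Strong windows, the 2000 of highest score in each list, were fewer on scaffold 9 in replicate 1 but not in replicate 2. Replicate 1 had 9 of them there, which was 1.15% of its scaffold 9 windows, against 2.13% in the whole list. That is 4.78 per Mb, below the 8.54 to 11.4 per Mb of the long scaffolds. Replicate 2 had 19, or 3.21% of its windows, against 3.1% in the whole list. That is 10.1 per Mb, inside the range of 8.32 to 12.6. A stretch of equal length held a median of 20 strong windows in replicate 1 (quartiles 12.75 and 26) and of 19 in replicate 2 (quartiles 14 and 24). Fewer than on scaffold 9 were found in 14 of the 100 stretches in replicate 1 and in 48 in replicate 2. The lowest strong window on scaffold 9 scored 4.43 in replicate 1 and the next one below it 4.30. In replicate 2 these scores were 2.91 and 2.66.

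**Figure D1:**
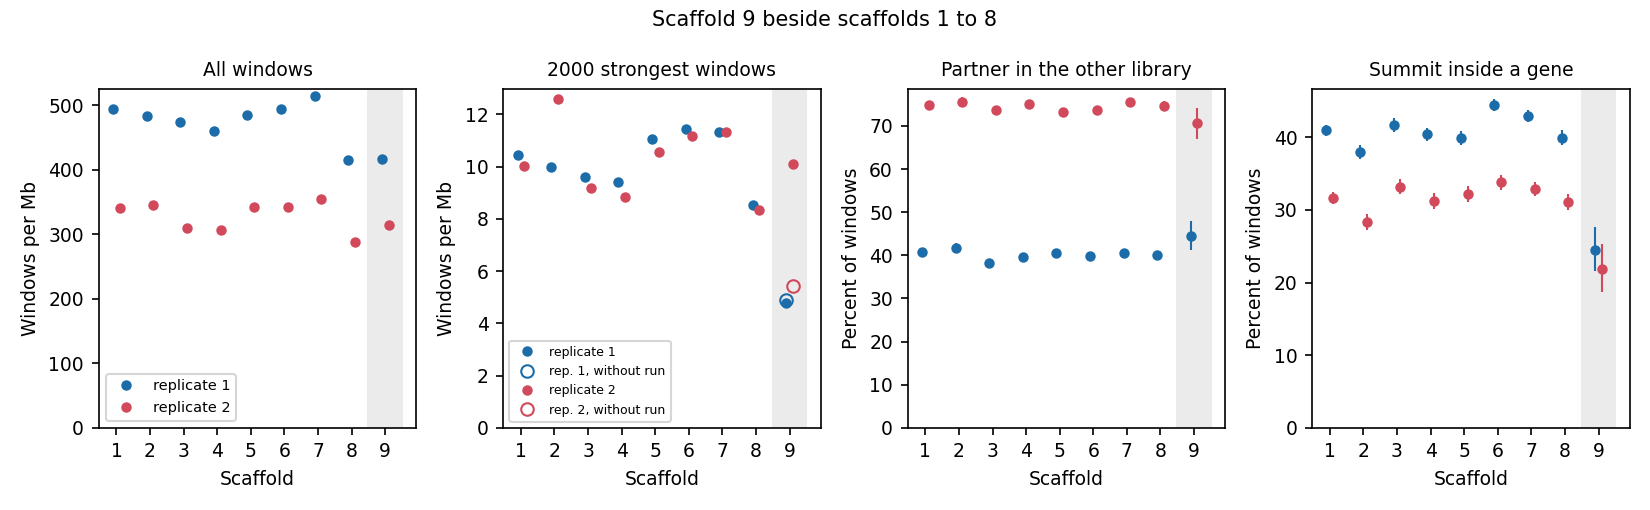
Values per scaffold in replicate 1 (blue) and replicate 2 (red): density of all windows and of the 2000 strongest, in windows per Mb, and the percent of windows with a partner in the other library or with the summit inside a gene, with 95% Wilson intervals as bars. Open circles leave out a run of strong replicate 2 windows on scaffold 9. Without it replicate 2 goes from 10.1 to 5.44 strong windows per Mb, beside 4.90 in replicate 1. The run was chosen for its strong replicate 2 windows, so its removal had to lower the replicate 2 value.

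Many of the strong replicate 2 windows stood in a single run. Of the 19 strong replicate 2 windows, 9 lay within 44.3 kb, from 1624858 to 1669188, which is 2.35% of the scaffold. Neighbours in the run lay within 20 kb of each other, a limit chosen after the data were seen. Replicate 1 had 17 windows in the same interval and none of them was strong, the highest scoring 2.60. With the run left out, replicate 1 had 4.90 strong windows per Mb and replicate 2 had 5.44. Since the run was chosen for the strong windows of replicate 2, its removal had to lower that value. Left out together with the other 2 replicate 2 runs of at least 9 strong windows, on scaffolds 2 and 3, it left ratios to scaffolds 1 to 8 of 0.478 and 0.549, beside 0.466 and 0.989 with all windows.

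**Figure D2:**
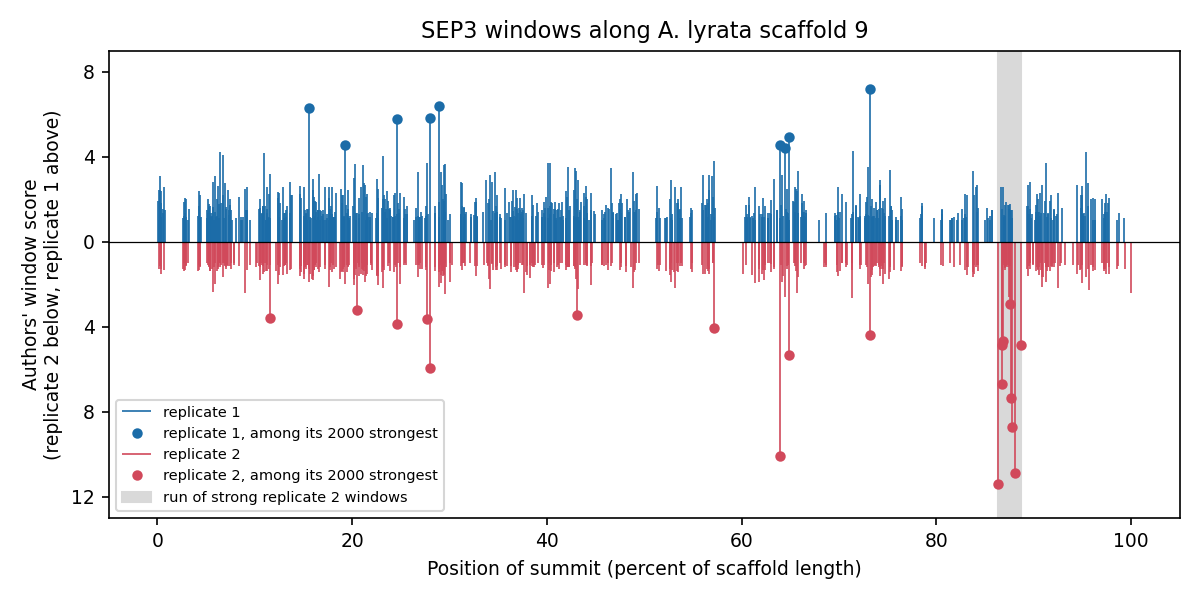
Authors' score of every window along scaffold 9, with position as percent of scaffold length, replicate 1 drawn upward and replicate 2 downward; dots mark windows among the 2000 strongest of their list. The grey band is the run in which replicate 2 had 9 strong windows and replicate 1 had none.

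The strongest windows of replicate 2 on the scaffold were in this run. The first was from 1624858 to 1625168 with a score of 11.39 (rank 139 of its list), and the second from 1657487 to 1657728 with 10.90 (rank 148). Neither met a replicate 1 window, the nearest being 6397 bp and 4136 bp away with scores of 2.60 and 1.49. Thus the top signals of one library stood where the other listed none.

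A window from 1651232 to 1653416 scored 8.70 in replicate 2 and was the widest of that library on the scaffold, at 2185 bp. It met 3 replicate 1 windows, which scored at most 1.5. The short window from 1650862 to 1650931, of 70 bp, scored 7.36 and met none. The window from 1631536 to 1632477 scored 6.68 in replicate 2 and 2.60 in replicate 1. In the first and last of these places replicate 2 had the higher score. Ranks within each list went the same way, at 193 against 41018 and 293 against 10508.

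The other 4 strong windows of the run scored 2.91 to 4.86. Those from 1633109 to 1633590 (4.86) and from 1633903 to 1635357 (4.67) faced replicate 1 scores of 1.55 and 2.57. The window from 1649020 to 1649355 had 2.91 against 1.78, and the one from 1669065 to 1669188 (4.86) had no partner. Between the strong windows replicate 2 listed 16 weaker ones, so that 25 windows in all fell in the run and their median score was 1.2. The replicate 1 windows of the interval had a median of 1.54, beside 1.42 on the rest of the scaffold.

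The run holds 5 annotated genes, and 3 of them are transfer RNA (tRNA) genes, of 5 tRNA genes on the scaffold. TRNAN-GUU codes for an asparagine tRNA, and the replicate 2 window of score 7.36 covered 63 of its 72 bases. In replicate 1 the nearest window was 314 bp from the gene. TRNAR-ACG, an arginine tRNA gene, lay whole inside the replicate 2 window of score 8.70, and a replicate 1 window of score 1.5 covered 31 of its 74 bases. TRNAL-UAG, a leucine tRNA gene, was met by a replicate 1 window of score 2.57 and by a replicate 2 window of score 1.09. The summit of that replicate 1 window lay 1418 bp from the gene, and its strongest replicate 2 partner scored 4.67. The remaining genes are LOC110227186 and LOC9299384, both protein-coding.

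These tRNA genes had the lengths and the spacing of tRNA genes of the plastid genome, as listed in the same gene table. The plastid is the organelle of photosynthesis and carries its own small genome, and stretches of plastid DNA are known in plant nuclear genomes. TRNAN-GUU and TRNAR-ACG started 715 bp apart, and the plastid trnN and trnR also 715 bp apart. TRNAL-UAG and TRNAN-GUU started 15209 bp apart, against 15248 bp for trnL and trnN of the plastid. The lengths of 80, 72 and 74 bp were the same in both places. Among 528 nuclear tRNA genes and 37 of the plastid, pairs of like amino acid, like length and like spacing (within 1%, up to 20 kb, in either direction) were found for 3 pairs on scaffold 9 and 32 on scaffold 2, and for none on the other scaffolds. All 3 pairs of scaffold 9 lay inside the run. Whether reads from plastid DNA had a part in these windows was not tested.

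**Figure D3:**
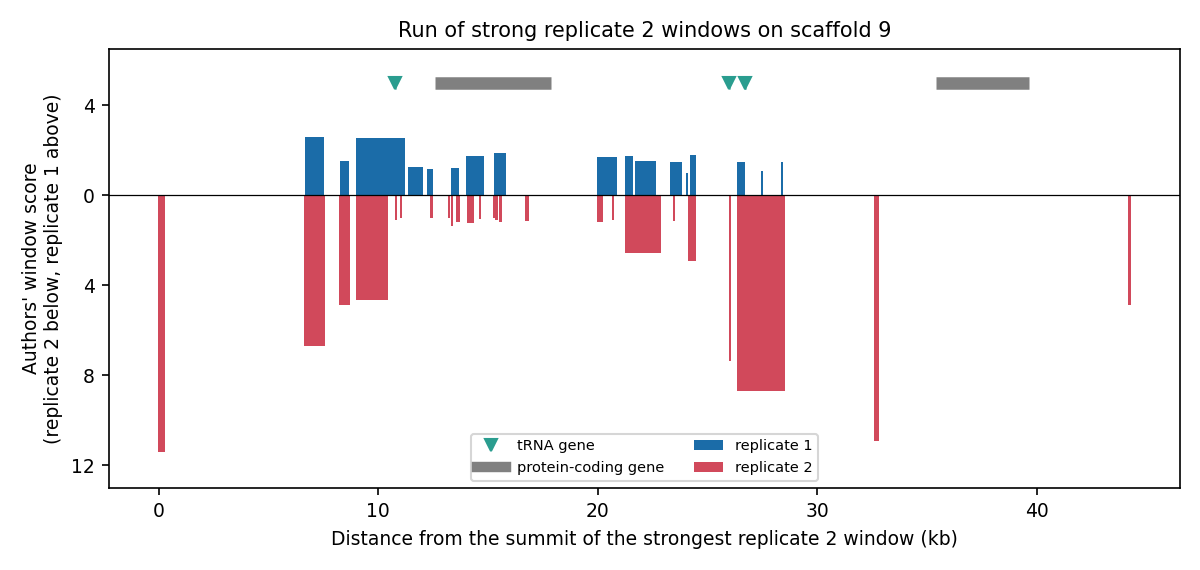
Windows of the run drawn as boxes of their width (at least 100 bp) and score, replicate 1 upward and replicate 2 downward, against distance in kb from the summit of the strongest replicate 2 window. Triangles mark the 3 tRNA genes and grey bars the 2 protein-coding genes; replicate 2 reaches 11.39 and replicate 1 at most 2.60.

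Runs of this length were rare in replicate 2 and absent from replicate 1 with the same linking distance. Replicate 2 had 3 runs of at least 9 strong windows, with 47 windows on scaffold 2, 11 on scaffold 3 and 9 on scaffold 9. The longest replicate 1 run had 7, on scaffold 6. The scaffold 2 run held 21 of the 32 plastid-like tRNA pairs of that scaffold, and the scaffold 3 run held none. On scaffold 9, the longest replicate 1 run joined 3 strong windows over 17.7 kb, with scores of 4.56, 4.43 and 4.92.

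Of the 19 strong replicate 2 windows of scaffold 9, 4 met no replicate 1 window at any score (21.1%, interval 8.51 to 43.3%), against 4.3% in the whole list. The long scaffolds ranged from 0.602 to 11.1%, scaffold 2 being the highest. All 4 lay in the run, and of the 10 strong windows outside it none lacked a partner. All 9 strong replicate 1 windows of scaffold 9 met a replicate 2 window, and in the whole list 0.1% did not.

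Over all windows, the shares that met the other library stood near those of the long scaffolds, and the direction of the difference turned with the rule for a partner. Of the 785 replicate 1 windows, 350 overlapped a replicate 2 window by at least 1 bp (44.6%, interval 41.1 to 48.1%), against 40.2% in the whole list and 38.2 to 41.8% on the long scaffolds. Of the 591 replicate 2 windows, 418 overlapped a replicate 1 window (70.7%, interval 66.9 to 74.3%), against 74.5% in the whole list and 73.1 to 75.6%. Replicate 1 windows covered 16.9% of scaffold 9 and 20.3% of the long scaffolds, and replicate 2 windows 7.06% and 7.78%; the part of this cover in the shares was not tested. When both windows had to overlap by at least 50% of their length, the differences from scaffolds 1 to 8 were -0.418 percentage points for replicate 1 windows and -2.11 for replicate 2 windows, in place of 4.43 and -3.83. With summits within 200 bp of each other both were positive, at 3.77 and 1.37. Among windows scoring at least 2 in both lists they were -2.80 and -13.7. The second of these values rests on 42 replicate 2 windows of scaffold 9. They include the 9 strong windows of the run, of which 4 met no replicate 1 window at any score. The run was not left out under this rule. In neither library did the sign hold under all of these rules.

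Partners became more frequent with score, on scaffold 9 as elsewhere. Windows of scaffold 9 also grew wider with score. Their median width went from 55.5 bp under 1.2 to 1088.5 bp at 3 or more in replicate 1. In replicate 2 it went from 49 to 517 bp. The part of width in the share with a partner was not tested. Replicate 1 windows scoring under 1.2 met a partner in 13.7% of 226 cases, and those scoring 2 to under 3 in 83.8% of 148 cases. At 3 or more, 45 of 46 did (97.8%, interval 88.7 to 99.6%), against 98.0% on scaffolds 1 to 8. In replicate 2 the share rose from 55.0% of 262 windows under 1.2 to 95.8% of 24 windows scoring 2 to under 3. It was lower again at 3 or more, where 14 of 18 had a partner (77.8%, interval 54.8 to 91.0%), against 95.5% on scaffolds 1 to 8. The 4 without one are those of the run.

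**Figure D4:**
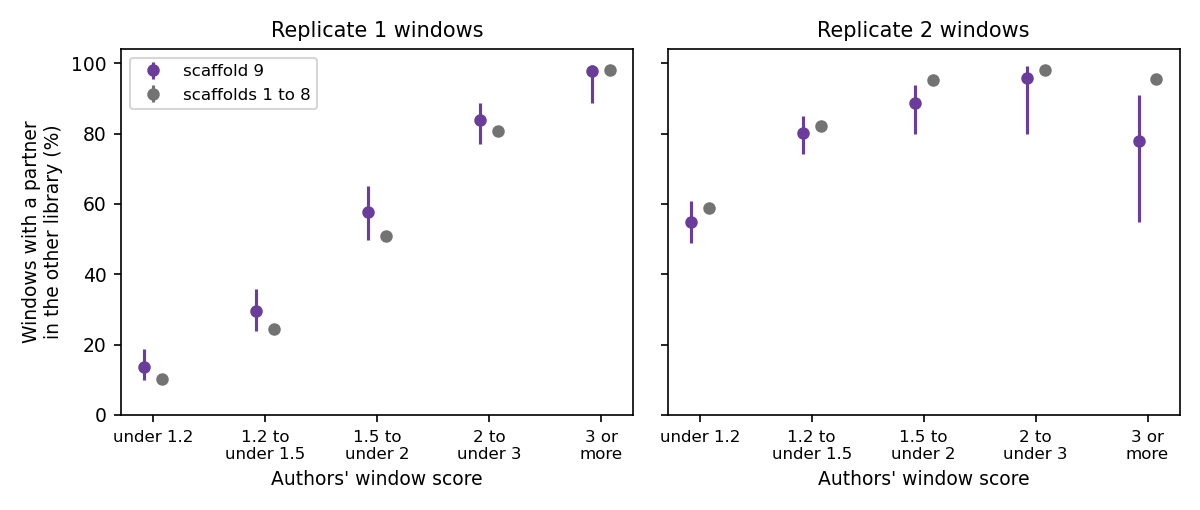
Percent of windows with a partner in the other library, by class of the authors' score, on scaffold 9 (purple) and on scaffolds 1 to 8 (grey), with 95% Wilson intervals. For replicate 2 the value of scaffolds 1 to 8 lies above the scaffold 9 interval at scores of 1.5 to under 2 (95.1% against 88.75%) and of 3 or more (95.5% against 77.8%).

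Where windows of the 2 libraries overlapped, their summits lay near each other. The 350 pairs, each a replicate 1 window with its strongest replicate 2 partner, had a median summit distance of 106 bp, against 97 bp on scaffolds 1 to 8. Summits lay within 200 bp in 74.9% of pairs, against 73.9%. Replicate 1 windows of a pair had a median score of 1.93 and a median width of 505 bp, against 2 and 577 bp on scaffolds 1 to 8. Their partners had 1.32 and 269.5 bp, against 1.32 and 281 bp. Replicate 1 had the higher score in 289 pairs and replicate 2 in 60, against 31960 and 5261 of 37305 pairs on scaffolds 1 to 8.

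Scores of a pair were less closely related than on the long scaffolds. Spearman's rho across the 350 pairs was 0.384, against 0.469 to 0.517 on scaffolds 1 to 8, and on log2 scores Pearson's r was 0.350, against 0.545 to 0.656. Outside the run rho was 0.420 and r was 0.469 over 335 pairs. With each replicate 2 window and its strongest replicate 1 partner, over the whole scaffold, rho was 0.310, against 0.322 to 0.356. The gap was smaller in that direction. Pairs share the libraries and sit along 1 scaffold, so these values are descriptions only. Inside the run replicate 2 scored higher in 10 of 15 pairs, and outside it in 50 of 335. The run was chosen for its strong replicate 2 windows, so this split and the values without the run follow in part from that choice.

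**Figure D5:**
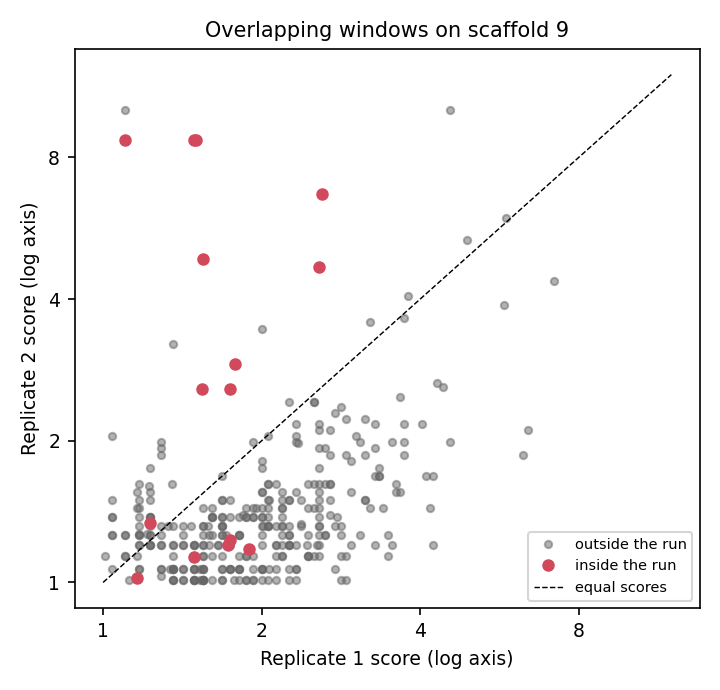
Authors' scores of the 350 overlapping pairs on scaffold 9, replicate 1 against replicate 2 on log axes, with pairs in the run in red. Most pairs lie below the dashed line of equal scores, while 10 of the 15 pairs in the run lie above it. The run was chosen for its strong replicate 2 windows.

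Pairs that were strong in both libraries numbered 5, or 2.66 per Mb, against 4.92 to 6.74 per Mb on the long scaffolds. Of the 9 strong replicate 1 windows, 5 had a strong partner (55.6%, interval 26.7 to 81.1%), against 59.4% in the whole list. Shared strong sites were sparse on scaffold 9, while the share of strong windows with a strong partner was near that of the whole list.

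Ordered by the poorer of its ranks in the libraries, the first pair was from 1375910 to 1377610. It scored 7.18 in replicate 1 (rank 542) and 4.37 in replicate 2 (rank 692), with summits 45 bp apart. Its summit lay inside LOC9299279, 79 bp beyond the end of LOC110227110, and was the highest of replicate 1 on the scaffold. Both neighbours are protein-coding, as are all genes named with pairs here unless another class is given.

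The pair from 527051 to 527712 had nearly equal scores, 5.83 and 5.96, and summits 1 bp apart. It stood midway between genes, 5166 bp from LOC110227077 and 5253 bp from LOC110226938. A companion from 521308 to 521813 scored 3.72 and 3.64 inside LOC110227077. By rank within its own list each pair stood higher in replicate 2, at 365 against 895 for the first and 1050 against 3097 for the second.

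The pair from 461971 to 463657 scored 5.77 and 3.88, at a distance of 4120 bp from TRNAL-AAG, another leucine tRNA gene, and 11073 bp from LOC110226948, a long non-coding RNA gene. The pair from 1075986 to 1076764 scored 3.79 and 4.06, 3237 bp from LOC110227092. The pair from 556012 to 556850 scored 3.66 and 2.48, with its nearest gene, LOC9299226, 7710 bp away. All 3 lay more than 3000 bp from any gene.

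A cluster of 3 pairs formed the replicate 1 run named above. The pair from 1204530 to 1204654 scored 4.56 in replicate 1 and 10.10 in replicate 2, with summits at the same base. It was 5985 bp from LOC110227100, a pseudogene, and 6969 bp from LOC9299355, and was the only window of scaffold 9 outside the replicate 2 run that scored 10 or more. Its replicate 1 window was 125 bp long, while the other replicate 1 windows of the 10 best pairs were 506 to 2012 bp.

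The next pair of the cluster, from 1213474 to 1214582, scored 4.43 and 2.60 in the short space between LOC9299355 and LOC9299356, 30 bp from the first and 278 bp from the second. The last, from 1220868 to 1222273, had scores of 4.92 and 5.35, 3429 bp beyond LOC9299356. Farther along, the pair from 1342654 to 1344665 scored 4.30 and 2.66, 1061 bp from LOC9299359. Its summits were 478 bp apart, the widest distance among the 10 best pairs.

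Some strong replicate 1 windows had weak partners. Those from 545063 to 545995, 43 bp from LOC9299225, and from 292585 to 294953, 78 bp from LOC9299212, scored 6.41 and 6.28 in replicate 1, and 2.11 and 1.87 in replicate 2. The window from 362748 to 363712, 26 bp from LOC9299216, had 4.56 and 1.99. These 3 summits lay within 100 bp of a gene end.

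Among replicate 1 windows without any partner, none was strong. The highest was from 1072284 to 1072891 with a score of 3.08, which placed it at rank 5853 of its list. The following 4 scored 2.45 to 2.66. All 5 lay outside genes and had a replicate 2 window within 773 bp, with scores of 1.01 to 1.2. Replicate 2 windows without a partner outside the run were likewise weak, the highest being from 1882383 to 1882730 with 2.42, the last window of the scaffold and 13871 bp from any replicate 1 window.

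The widest windows were in different places in the 2 libraries. In replicate 1 they were from 1575744 to 1578224 (2481 bp, score 3.34), from 241666 to 244069 (2404 bp, score 2.57) and from 292585 to 294953 (2369 bp, score 6.28). Each met 1 to 3 replicate 2 windows. In replicate 2 all 3 widest, of 1455 to 2185 bp, lay in the run.

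Windows were unevenly spread along the scaffold, and in the same way in both libraries. The first 9 bins of 100 kb held 459 replicate 1 and 346 replicate 2 windows, and the next 9 bins 308 and 227. Single bins ranged from 25 to 68 windows in replicate 1 and from 18 to 52 in replicate 2. Across the 18 full bins the counts of the libraries had a Pearson's r of 0.825, against 0.830 to 0.92 on the long scaffolds. These are descriptions, since bins share libraries and neighbouring bins are not independent.

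The number of windows in a bin had little relation to the number of genes. Pearson's r with genes per bin was 0.108 in replicate 1 and -0.0932 in replicate 2, against 0.718 to 0.794 and 0.501 to 0.693 on the long scaffolds. Bins of scaffold 9 held only 6 to 16 genes, whereas the long scaffolds ran from 0 to at least 32. The first 9 bins had 99 genes and the next 9 had 110, although the first had more windows.

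Scaffold 9 had fewer genes per Mb than any whole long scaffold. It held 213 annotated genes, or 113 per Mb, against 159 to 180 per Mb, and genes covered 24.1% of it, against 38.5 to 44.1%. Gene-poor stretches occur in the long scaffolds too, where 25 of the 100 stretches of equal length had fewer than 213 genes. Of these genes 73.2% were protein-coding, against 85.3 to 88.9%, and 7.51% were pseudogenes, against 3.01 to 4.47%. The genes are those of a block in a RefSeq gene table that gives no scaffold names, and the block was taken as scaffold 9 from its place in the table. Its last gene ended 31587 bp before the last window.

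A smaller share of summits lay inside genes than on the long scaffolds, close to the 24.1% of the scaffold that genes cover. In replicate 1 the share was 24.5% (interval 21.6 to 27.6%), against 38.0 to 44.4%, and in replicate 2 21.8% (interval 18.7 to 25.3%), against 28.3 to 33.8%. Genes cover 38.5 to 44.1% of the long scaffolds. Their shares were thus also close to gene cover in replicate 1, and below it in replicate 2. Among windows scoring at least 2 the differences from scaffolds 1 to 8 were far smaller, -3.44 and -2.56 percentage points, beside -16.7 and -10.1 for all windows. Summits just outside a gene, at most 1000 bp from its end, made 25.7% and 24.4%, against 31.1 to 32.7% and 32.2 to 34.6%. This difference grew among windows scoring at least 2, from -6.26 to -18.5 percentage points in replicate 1 and from -9.16 to -18.9 in replicate 2.

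Strong windows of scaffold 9, like its windows in general, stood far from genes in many cases. Of the 9 in replicate 1, 1 lay inside a gene and 4 were over 3000 bp from the nearest one (44.4%, against 13.6% of strong windows on scaffolds 1 to 8). Of the 19 in replicate 2, 5 lay inside a gene and 9 lay more than 3000 bp away (47.4%, against 18.3%). Over all windows the share beyond 3000 bp was also higher on scaffold 9. It was 28.9% in replicate 1 and 32.0% in replicate 2, against 10.4% and 13.5% on scaffolds 1 to 8. The lower gene density of the scaffold moved with this, and its part in the result was not tested. Of 156 protein-coding genes, 117 (75%) had the summit of a pair inside them or within 3000 bp, against 77.7 to 85.9% on the long scaffolds.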

How the data were processed

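The authors deposited 1 window list per ChIP library, with start, end, summit (position in bp), width in bp and a score; the score is the authors' own, per the file headers, with no formula. The submitters' processing notes name CASAVA; the sources used here do not give aligner, peak caller or settings, and both lists may rest on the same input library. Read depth is unknown. Windows were joined to partners in the other list (at least 1 bp of overlap, highest score taken) and to RefSeq genes of assembly v.1.0, whose first 9 blocks of rising start, with 33239 genes, were taken as scaffolds 1 to 9. Gene positions rest on that order and on the table and the files sharing a build; only symbols and distances are printed. Scaffold length is the last window end of either list. Ties at rank 2000 were taken in order of scaffold and start. Code was tested on simulated windows (Python 3.11.15, pandas 2.3.3, scipy 1.17.1).

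Named windows were the 10 pairs of smallest worse rank, the 5 strongest without a partner and the 3 widest per library, and strong windows named beside them were chosen after their values were seen, as were the run and the tRNA comparison. The gene table has no gene descriptions, so floral genes were not selected by name. Members and lists were chosen with earlier results of these data known. The A. thaliana list was not used here.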

Additional observations from a re-analysis of the deposited data

How the results depend on the processing

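Each value here is the mean over both libraries of scaffold 9 set against scaffolds 1 to 8. The density ratio of 0.912 ranged from 0.862 to 0.913 under the alternatives, and from 0.871 to 0.954 when either library was left out. The difference of median scores, 0, became -0.02 for windows scoring at least 2 and -0.095 at the 90th percentile. The width ratio of 1.01 became 0.942 with the 20000 highest windows, 0.915 for scores of at least 2 and 0.953 for mean widths; leaving out a library gave 0.977 to 1.04. The overlap difference of 0.303 percentage points became -7.33 with the 20000 highest windows, -8.26 for scores of at least 2, -1.26 with 50% reciprocal overlap, 2.57 with summits within 200 bp and -0.208 without the run. It averages 4.43 in replicate 1 and -3.83 in replicate 2, and its sign turned in replicate 1 with the 20000 highest windows (-4.75), scores of at least 2 (-2.80) and reciprocal overlap (-0.418), and in replicate 2 with summits (1.37). The strong-window ratio of 0.728 was 0.822 with the 500 strongest (0 in replicate 1, 1.64 in replicate 2), 0.802 with the 5000 strongest, 0.505 without the run and 0.513 without all 3 long replicate 2 runs; leaving out a library gave 0.466 to 0.989. The difference inside genes of -13.4 percentage points became -5.15 and -3.00 under the same limits on score, and that within 1000 bp of a gene end, -7.71, became -15.6 and -18.7; leaving out a library gave -16.7 to -10.1 and -9.16 to -6.26. The cause of these shifts was not tested. Sets limited by score include all ties at the limit. Overlap needs both libraries, so neither was left out. The runs were left out after the data were seen. No paired analysis was possible because no list of windows for the input is used here, and no test was run. Unknown depth limits which weak windows could be listed.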
